A study of Mus musculus with 12 samples.

Results

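Hippocampal RNA of aDN-DISC1 mutant mice given Δ9-THC was compared with that of control mice given the same drug, with 3 libraries on each side, over all 15802 genes that passed a filter on low counts. The comparison uses 6 of the 12 libraries of the series, chosen by their genotype and treatment labels. The other 6, from control and mutant mice given vehicle, are used below only where they show how the genotype difference under THC compares with the difference without the drug. All mice are on a C57BL/6 background per the labels, the mutant libraries are labelled DISC1 mutant, and the control libraries are recognised from their titles alone. The line's name refers to a dominant-negative form of DISC1 in astrocytes, and the series title places the genetic vulnerability in that cell type and THC in adolescence. The promoter, the alleles of the controls, the dose, the age and the sex are not given in the sources used here. No label ties a library to an animal, so whether the 3 libraries of a group came from separate mice is not known, and the spread behind each p-value may be technical.

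DISC1 is a scaffold protein that binds centrosomal, cytoskeletal and phosphodiesterase proteins, and in astrocytes it binds serine racemase, the enzyme that makes the NMDA receptor co-agonist D-serine. THC is the main psychoactive compound of cannabis and acts on the CB1 receptor, which neurons and astrocytes of the hippocampus carry. In brain, CB1 signalling can raise COX-2, the prostaglandin-forming enzyme, and NF-kB is a transcription factor that induces COX-2 and other inflammatory genes. The study asks how the mutation and the drug meet in these pathways.

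Total expected counts were 35834126, 41389957 and 35779460 in control THC 1 to 3, and 33165903, 35333851 and 38871319 in mutant THC 1 to 3. Prox1, a transcription factor gene that marks the granule cells of the hippocampal dentate gyrus, was present in all 6 libraries at 30.8 to 97.8 CPM (counts scaled to an effective library of 1000000). Markers of neighbouring tissue set single libraries apart. The summed level of 19 choroid plexus markers was 133, 5986 and 140 CPM in control THC and 7196, 108 and 3350 CPM in mutant THC, so control THC 2, mutant THC 1 and mutant THC 3 stood above the other 3 libraries. The summed level of the striatal neuron markers was 606, 624 and 590 CPM in control THC, 540 and 650 CPM in mutant THC 1 and 2, and 6436 CPM in mutant THC 3. In whole tissue, fewer cells of a type and less RNA per cell cannot be told apart. The labels number the control THC libraries 2, 1 and 4 and the mutant THC libraries 5, 12 and 3, and name no batch.

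The mouse Disc1 gene, given first because the mutation concerns it, was at 2.42, 2.45 and 2.58 CPM in control THC and at 2.28, 3.04 and 1.42 CPM in mutant THC. The groups overlapped (log2 fold change -0.15 ± 0.24). No source used here says whether transcripts of the mutant form map to this gene, so its level does not check the labels.

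One gene passed the threshold in the genotype comparison under THC. Prm1 encodes protamine 1, the small arginine-rich protein that replaces histones in the chromatin of sperm. It was called as higher in mutant THC, 1 gene of 15802 or 0.00633% of those tested (edgeR quasi-likelihood test with Benjamini-Hochberg adjustment, adjusted p = 0.025). Prm1 had 1, 0 and 0 counts in control THC 1 to 3 and 102, 35 and 73 counts in mutant THC 1 to 3. Every mutant library was above every control library. The ratio of the summed counts, scaled to library totals, was 221 (95% exact counting interval 39.2 to 8771, which covers counting error only). Under vehicle the gene had 0, 0 and 1 counts in control libraries and 111, 87 and 61 counts in mutant libraries, a ratio of 260 (46.3 to 10310). The log2 difference between the 2 genotype effects was -0.21 ± 2.33 (SE, interaction p of edgeR 0.93, adjusted p = 0.992), which leaves the size of any difference between the treatments unresolved.

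Prm1 lies on chromosome 16 of GRCm38.p6 on the minus strand, at chr16:10796332-10796823, and its GENCODE transcript has 2 exons. The coding part is 156 bases long, and 28 of its 51 amino-acid codons encode arginine. The counts are totals per gene, so they do not show which part of Prm1 the reads cover. Whether the reads include this coding part, or come from transcripts of this locus, was not tested. The makeup of the mutant construct is also unknown here. The coding sequence below is the annotated one, credited to GENCODE vM21 on GRCm38, and was not read from these libraries. It is shown because Prm1 alone was called, with the arginine codons in capitals and the rest in lower case.
Prm1: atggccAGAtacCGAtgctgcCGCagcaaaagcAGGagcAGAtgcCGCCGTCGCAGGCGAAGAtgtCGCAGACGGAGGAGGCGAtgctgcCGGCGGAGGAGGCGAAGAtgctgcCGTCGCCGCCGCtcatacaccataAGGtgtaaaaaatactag

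The genes that sit beside Prm1 in the genome, and those that act with it in sperm, did not share its pattern. Prm2 and Prm3, its neighbours in the protamine cluster, had 1 count each over the 12 libraries. Tnp2, the transition protein gene of the same cluster, and Tnp1, its counterpart on chromosome 1, had 0 counts. Socs1, a cytokine signalling inhibitor gene on one side of the cluster, had 21, 28 and 13 counts in control THC and 17, 13 and 17 in mutant THC. Rmi2, a genome stability gene on the other side, had 274, 334 and 324 counts in control THC and 273, 307 and 257 in mutant THC. For both of these flanking genes the groups overlapped.

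**Figure D1:**
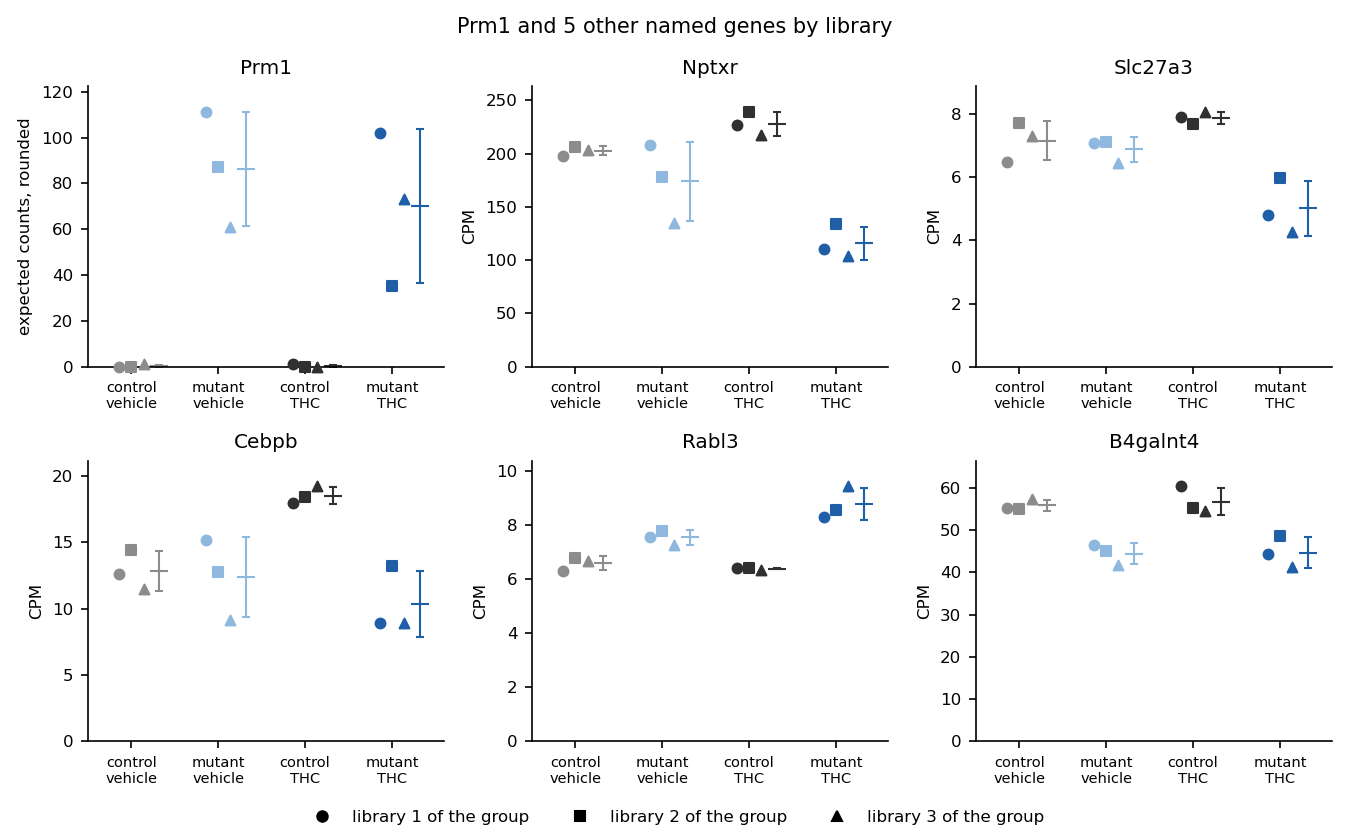
Prm1 in rounded expected counts and 5 further named genes in CPM, by group, each symbol 1 library and the bar the mean ± SD of the 3 libraries of a group. Prm1 is at 0 or 1 count in all 6 control libraries and at 35 to 111 in the 6 mutant libraries, while Nptxr, Slc27a3 and Cebpb are lower in mutant THC than in control THC but overlap between genotypes under vehicle.

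Beyond Prm1, no gene passed. An unadjusted p under 0.05 was reached by 1419 genes (8.98%), of which 745 (4.71%) were higher and 674 (4.27%) lower in mutant THC. This balance turned with limma-voom (561 higher, 774 lower) and with choroid plexus and striatal marker scores as covariates (222 and 311), and it was 902 and 570 without control THC 2. The 3 mutant libraries lay above the 3 control libraries for 763 genes (4.83%) and below them for 901 (5.7%). DESeq2 on the same table called 7 genes, Prm1, Rabl3 and H2ac12 as higher and Nptxr, Slc27a3, Smarcd2 and B4galnt4 as lower. With limma-voom 0 genes were called, and 1335 had an unadjusted p under 0.05. H2ac12, a histone gene with near-identical copies, was at 0 in all 3 control THC libraries and at 0.180, 0.881 and 0.749 CPM in mutant THC. The Prm1 call was not kept in most refits with fewer libraries. It was lost by omitting control THC 1, 2 or 3, mutant THC 1 or mutant THC 3, and it was kept without mutant THC 2. Over these 6 omissions the edgeR adjusted p ranged from 0.00641 to 0.343, while the log2 fold change, 7.34 with all libraries, was 6.84 to 9.21.

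**Figure D2:**
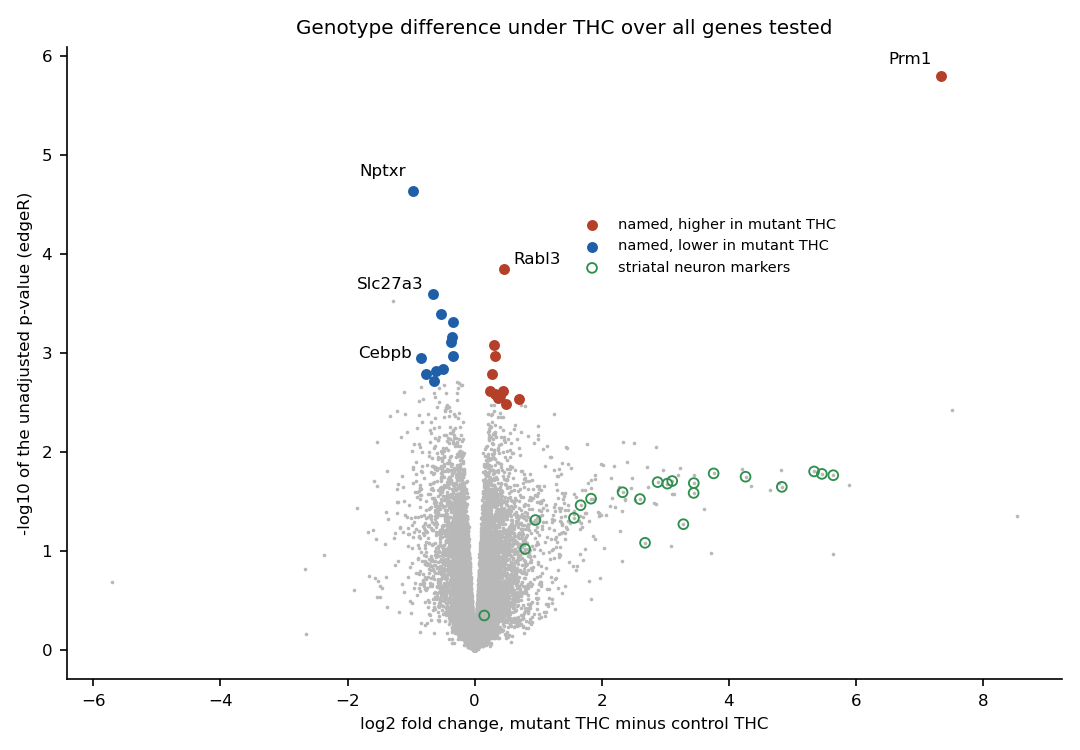
Each point is 1 of 15802 genes, with the log2 fold change of mutant THC minus control THC on the horizontal axis and -log10 of the unadjusted edgeR p-value on the vertical axis; named genes are filled and striatal neuron markers are open circles. Prm1 stands at the top right, Nptxr is the next by p-value, and the striatal markers reach large fold changes at modest p-values, with high counts in 1 library, mutant THC 3.

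The genes named next had the smallest p-values on each side, so that their separation under THC is a description of how they were chosen. Among those lower in mutant THC, a synaptic receptor gene led. Nptxr encodes the neuronal pentraxin receptor, a membrane protein of excitatory synapses that takes part in clustering AMPA receptors. It was at 227, 240 and 217 CPM in control THC and at 110, 134 and 104 CPM in mutant THC, so the highest mutant library lay well below the lowest control library. The log2 fold change was -0.98 ± 0.14 (SE, edgeR adjusted p = 0.182), which did not pass, while DESeq2 gave an adjusted p of 1.11e-07. Leaving out 1 THC library at a time kept the fold change between -1.09 and -0.90. Under vehicle the gene was at 198, 206 and 204 CPM in control and 208, 178 and 135 CPM in mutant libraries, which overlapped (-0.22 ± 0.14). The interaction log2 difference was -0.76 (unadjusted p = 0.0026, adjusted p = 0.586 by edgeR).

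The other 11 genes named on this side, none past the edgeR threshold (adjusted p = 0.552 for each), include genes of transport and secretion, transcription, and Wnt signalling. Slc27a3, of the fatty acid transport protein family, was at 7.92, 7.69 and 8.07 CPM in control THC and at 4.81, 5.97 and 4.28 CPM in mutant THC (log2 fold change -0.65 ± 0.12). Smarcd2, a subunit gene of the SWI/SNF chromatin remodelling complex, was at 26.7, 25.7 and 29.8 CPM against 18.5, 20.4 and 17.9 CPM (-0.53 ± 0.11). Cebpb, a transcription factor gene of inflammatory and metabolic responses, was at 17.9, 18.4 and 19.2 CPM against 8.92, 13.2 and 8.91 CPM (-0.84 ± 0.19). The 3 genes had in common that their genotype groups overlapped under vehicle, where the log2 fold changes were -0.06, -0.02 and -0.05.

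B4galnt4 behaved otherwise. This glycosyltransferase gene was at 60.4, 55.3 and 54.5 CPM in control THC against 44.3, 48.5 and 41.2 CPM in mutant THC (-0.35 ± 0.07). Under vehicle it was at 55.3, 54.9 and 57.4 CPM against 46.5, 45.1 and 41.7 CPM (-0.33 ± 0.07). The mutant libraries were thus below the control libraries in both treatments. Slc25a29, a mitochondrial carrier of basic amino acids, and Cnnm4, a gene of magnesium transport, were also separated in both, with -0.38 and -0.34 under THC and -0.14 and -0.15 under vehicle. Sec24d, a cargo-binding subunit of the COPII coat that leaves the endoplasmic reticulum, was at 39.2, 40.2 and 44.0 CPM in control THC and at 33.2, 34.6 and 28.2 CPM in mutant THC (-0.36 ± 0.08).

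Frzb, which encodes a secreted Wnt antagonist, was at 24.5, 26.4 and 28.4 CPM against 17.2, 21.6 and 13 CPM (-0.61 ± 0.15). Adgra2, the gene of a Wnt7 co-receptor of brain endothelium, was at 13.2, 11.4 and 14.2 CPM against 9.19, 8.98 and 6.87 CPM (-0.63 ± 0.16). Under vehicle Adgra2 was not lower in mutants (0.23 ± 0.16). Tmem215 and 1700017B05Rik completed this side at -0.76 ± 0.18 and -0.50 ± 0.12. Of the 12 genes, 9 were also below 0 under vehicle, 3 were separated there in the same direction, and 9 had an unadjusted interaction p under 0.05 (6.59% of all genes did), a measure that shares the THC libraries by which they were chosen.

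Of the 11 genes named as higher beside Prm1, 10 were also above 0 under vehicle. Rabl3, a small GTPase gene related to the Rab family, was at 6.41, 6.41 and 6.36 CPM in control THC and at 8.32, 8.56 and 9.45 CPM in mutant THC (log2 fold change 0.46 ± 0.08, edgeR adjusted p = 0.552). It was at 6.29, 6.80 and 6.69 CPM in control vehicle and at 7.56, 7.81 and 7.28 CPM in mutant vehicle (0.19 ± 0.08). The groups did not overlap in either treatment.

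Ugt8a, which makes the galactocerebroside of myelin, was at 80.2, 98.6 and 73.4 CPM in control THC and at 137, 104 and 167 CPM in mutant THC (0.70 ± 0.18). Gamt, an enzyme gene of creatine synthesis that is abundant in oligodendrocytes, was at 12.7, 14.3 and 10.8 CPM against 16.9, 14.8 and 21.4 CPM (0.49 ± 0.13). Both stood highest in mutant THC 3 and 1, the libraries with the highest myelin sums given below. Ctsz, a lysosomal cathepsin gene of microglia and macrophages, was at 32.7, 34.4 and 30.4 CPM against 40.4, 37.2 and 47.5 CPM (0.36 ± 0.09), with 0.44 ± 0.09 under vehicle.

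Fat3 stood out among these 12 as the gene below 0 under vehicle. It encodes a giant cadherin that shapes neuronal dendrites and was at 380, 358 and 383 CPM in control THC and at 431, 439 and 524 CPM in mutant THC (0.32 ± 0.08), while control and mutant vehicle gave -0.11 ± 0.08. Rnd3, which encodes a small GTPase that acts on the actin cytoskeleton, was at 18.6, 20.7 and 17.0 CPM against 23.8, 22.2 and 30.3 CPM (0.44 ± 0.11). Ugp2, whose enzyme makes the UDP-glucose used for glycogen, had the smallest difference of the 12, 0.24 ± 0.06. Nat8f4, of an N-acetyltransferase family, the transcribed pseudogene Gm13363, the endosome-to-Golgi trafficking gene Tbc1d23 and 1190005I06Rik lay between 0.28 and 0.40.

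Of the 12 genes named as higher, 11 were above 0 under vehicle and 9 were separated there in the same direction, where 15.3% of all genes tested were. Of the 12 named as lower, 3 were separated under vehicle, where 12.7% of all genes were. Both sets were chosen by p-values of a model that shares its estimate of the spread over all 12 libraries. The vehicle libraries thus had a part in the choice, and these counts are a description. Prm1, Rabl3 and Tbc1d23 of the 12 named as higher lie on chromosome 16, as do 488 of 15656 genes with a known chromosome (3.12%). Rabl3 lies from 37539858 to 37572385 and Tbc1d23 from 57168862 to 57231528. Gm13363, Rnd3 and Ctsz of the same 12 lie on chromosome 2, which holds 7.87% of all genes. Of the 12 named as lower, 0 lie on chromosome 16. Among 152 placed genes separated upwards in both treatments, 8 (5.26%) were on chromosome 16, and among 239 separated downwards in both, 8 (3.35%) were. Chromosomes 2 and 3 held 12.5% and 8.55% of the former set, against 7.87% and 4.87% of all genes.

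More genes had a small p-value without the drug. Under vehicle 1 gene passed as well in the main edgeR test, again Prm1 (0.00633%). DESeq2 called 788 genes there, edgeR on the vehicle libraries alone 523, and limma-voom 0. In the main test an unadjusted p under 0.05 was reached by 2815 genes (17.8%), and 4423 genes (28%) were separated. The former count was 855 with the choroid plexus and striatal scores as covariates and 1417 without mutant vehicle 3. All 3 mutant vehicle libraries, with choroid plexus sums of 4119 to 11420 CPM, lay above the control vehicle libraries at 79.9 to 155 CPM, and genotype and choroid plexus content cannot be told apart there. Of the 763 genes separated upwards under THC, 153 (20.1%) were also separated upwards under vehicle, where 15.3% of all genes tested were. These 153 were 6.35% of the 2410 under vehicle and 0.968% of all genes tested. Of the 901 separated downwards, 239 (26.5%) were also separated downwards under vehicle, where 12.7% of all genes were. These 239 were 11.9% of the 2013 under vehicle and 1.51% of all. Opposite separation under vehicle was seen for 34 of the 763 (4.46%) and 49 of the 901 (5.44%), beside 12.7% and 15.3% of all genes. Over all 12 libraries, 65 of the 15802 genes tested were higher in each mutant than in each control library and 119 were lower. The interaction test called 0 genes by edgeR, with 1041 genes (6.59%) at an unadjusted p under 0.05, of which 699 (4.42%) had a lower and 342 (2.16%) a higher genotype effect under THC than under vehicle. With the covariates these counts were 601 and 495, and the total ranged from 712 to 1841 over omissions of 1 library. For the interaction DESeq2 called 34 genes and limma-voom 0.

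The genes of the study's question showed no genotype difference past the threshold under THC. Cnr1, the CB1 receptor gene, was at 337, 322 and 306 CPM in control THC and at 346, 332 and 687 CPM in mutant THC. The groups were not separated and mutant THC 3 alone stood high, so that the log2 fold change of 0.50 ± 0.22 was 0.075 without it. Ptgs2, the COX-2 gene, was at 28.4, 32.3 and 42.0 CPM against 24, 36.1 and 17.0 CPM (-0.42 ± 0.25, edgeR adjusted p = 0.594). Its mutant libraries lay on both sides of the lowest control library. Nfkb1 and Rela, NF-kB subunit genes, were at -0.06 ± 0.06 and 0.00 ± 0.07, and Nfkbia, the inhibitor gene, at -0.01 ± 0.11. Srr, the serine racemase gene, was at 0.02 ± 0.07. Gfap, the astrocyte filament gene, was at 384, 377 and 411 CPM against 469, 432 and 285 CPM, with mutant THC 3 below and the other mutant libraries above every control library.

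Pathway lists around these genes are given by the number of members in each direction, since no member of any list passed the threshold. Among all genes tested 51.5% were above 0, 48.5% below, and the median was 0.0051. An unadjusted p under 0.05 was reached by 4.71% of them as higher and by 4.27% as lower. Separation upwards was seen for 4.83% and downwards for 5.7%. Counts of list members are to be read beside these shares. Of 11 endocannabinoid genes, 8 were below 0 (median -0.097). An unadjusted p under 0.05 was reached by Napepld, Faah and the CB1-binding protein gene Cnrip1 as lower and by Cnr1 as higher. Napepld, whose enzyme releases anandamide and related amides from membrane lipids, was at 39.7, 38.9 and 54.8 CPM in control THC and at 30.8, 37.1 and 21.2 CPM in mutant THC (-0.58 ± 0.19). Faah, which degrades anandamide, was at 136, 133 and 162 CPM against 103, 141 and 72.7 CPM (-0.45 ± 0.20), and Dagla, which makes 2-arachidonoylglycerol, was at -0.34 ± 0.22. Only Napepld was separated between the groups. Omitting mutant THC 3 gave a list median of -0.034, and omitting mutant THC 2 gave -0.238.

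In the prostanoid pathway the members went both ways, 12 of 21 above and 9 below 0, with a median of 0.047. Slco2a1, the prostaglandin uptake carrier gene, was at 2.59, 2.76 and 3.11 CPM in control THC and at 1.74, 2.25 and 0.749 CPM in mutant THC (-0.84 ± 0.33). Tbxas1, the thromboxane synthase gene, was at 2.68, 2.11 and 2.89 CPM against 3.36, 3.44 and 2.81 CPM, which overlapped (0.33 ± 0.15). Ptgs1, which encodes COX-1, was separated upwards by a small amount (0.12 ± 0.09). Ptges, the inducible prostaglandin E synthase gene, was at -0.10 ± 0.14 under THC against 0.48 ± 0.14 under vehicle.

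NF-kB subunits and regulators, 19 genes, had a median of -0.015, and 2 of them, Nfkbiz and Nfkbie, both inhibitor-family genes, had an unadjusted p under 0.05 as lower (-0.35 ± 0.12 and -0.37 ± 0.16). Of 13 tested inflammatory NF-kB targets 7 were above and 6 below 0, and 4 were separated downwards (all genes: 5.7%). An unadjusted p under 0.05 was reached by 3 of these 4, each as lower (all genes: 4.27%). Besides Cebpb these were Csf1, the microglial growth factor gene, at 25.3, 26.7 and 28.3 CPM in control THC and 22.5, 23.8 and 18.9 CPM in mutant THC (-0.30 ± 0.08), and Irf1, an interferon-responsive transcription factor gene, at 8.56, 8.50 and 10.4 CPM against 7.15, 7.67 and 5.37 CPM (-0.45 ± 0.13). Their vehicle values were 0.07 and 0.12. Among interferon-induced genes 15 of 27 were above 0 with a median of 0.042. Ifitm1, a membrane protein gene that restricts virus entry, was at 1.76, 1.90 and 1.74 CPM against 1.2, 1.22 and 1.08 CPM under THC (-0.62 ± 0.16) and at 1.66, 1.45 and 1.78 CPM against 2.70, 2.00 and 2.33 CPM under vehicle (0.52 ± 0.16), separated in opposite directions.

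DISC1 partners moved little. Of 23 scaffold partner genes 16 were above 0 with a median of 0.049, and Cit, the citron kinase gene (0.78 ± 0.32), and Pde4b, a cAMP phosphodiesterase gene (0.41 ± 0.17), had an unadjusted p under 0.05. Both were highest in mutant THC 3, at 48.2 and 154 CPM, and their groups overlapped. Fez1, a kinesin adaptor gene of axonal transport, was separated at 216, 211 and 212 CPM in control THC and 226, 229 and 231 CPM in mutant THC (0.10 ± 0.05).

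The D-serine and glycine list holds the serine synthesis genes. Their pathway makes L-serine from a glycolytic intermediate, mainly in astrocytes, and serine racemase then converts it to D-serine. Phgdh, its entry enzyme gene, was at 109, 104 and 108 CPM in control THC and at 140, 112 and 140 CPM in mutant THC (0.29 ± 0.09). Psat1 was at 121, 125 and 123 CPM against 148, 127 and 151 CPM (0.21 ± 0.08), and Psph at 21.9, 22.8 and 21.1 CPM against 24.7, 24.2 and 23.7 CPM (0.14 ± 0.06). All 3 genes, of the 13 tested in the list, were separated upwards, where 4.83% of all genes were. Shmt1, which turns serine into glycine, was at 3.90, 4.32 and 4.93 CPM against 3.79, 3.44 and 3.69 CPM (-0.27 ± 0.12), and Shmt2, its mitochondrial counterpart, was at -0.15 ± 0.12. Both were separated downwards, where 5.7% of all genes were. Of the 13 tested genes of D-serine and glycine handling, 11 were above 0 with a median of 0.059, which ranged from 0.021 to 0.131 over single omissions, and the median under vehicle was 0.063. Myelin markers, given below, were also highest in mutant THC 1 and 3, and their part in these values was not tested.

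Complement genes went both ways. C1qa, C1qb and C1qc, which encode the recognition subunit of the classical pathway and are made by microglia, were separated upwards. C1qa was at 53.5, 48.3 and 50.6 CPM in control THC and at 58.9, 55 and 61.6 CPM in mutant THC (0.20 ± 0.07). C1qb and C1qc were at 0.21 ± 0.09 and 0.19 ± 0.07. In contrast Serping1, the C1 inhibitor gene, was at 9, 10.8 and 12.4 CPM against 7.81, 7.99 and 5.27 CPM (-0.62 ± 0.19). C2 and C4b, genes of the classical convertase, were at -1.11 ± 0.45 and -0.33 ± 0.14, and C3, the central component, at -0.79 ± 0.36. In all, 9 of 18 members were above and 9 below 0, with a median of 0.0078.

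Under vehicle Serping1, C2, C3 and C4b were above 0. Serping1 was at 6.58, 6.53 and 6.25 CPM in control vehicle and at 13.7, 9 and 11.3 CPM in mutant vehicle, and the interaction was -1.43 ± 0.27 (unadjusted p of edgeR 0.00022, adjusted p = 0.485). C3 was at 1.79, 1.64 and 1.06 CPM against 3.96, 5.19 and 5.05 CPM, and its interaction was -2.45 ± 0.51 (adjusted p = 0.485 by edgeR). The complement median under vehicle was 0.673, and 9 of 18 members had an unadjusted interaction p under 0.05, each with the lower effect under THC, against 4.42% of all genes. The list was chosen with earlier results of these data known, so the count is a description. No interaction passed the edgeR threshold.

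Antigen presentation genes of class II had most members below 0 under THC and a median above 0 under vehicle. Cd74, the invariant chain gene, was at 3.51, 4.37 and 2.52 CPM in control THC and at 2.64, 2.73 and 1.73 CPM in mutant THC (-0.56 ± 0.27), against 2.24, 1.56 and 1.99 CPM and 7.14, 4.08 and 6.62 CPM in control and mutant vehicle (1.62 ± 0.28). H2-Aa, a class II chain gene, was at 1.31, 2.69 and 1.54 CPM against 1.68, 1.31 and 0.981 CPM under THC (-0.49 ± 0.32) and at 1.72 ± 0.32 under vehicle. The groups overlapped under THC and not under vehicle for both genes. Over the list 6 of 8 members were below 0 under THC with a median of -0.459, and without control THC 2 the median was -0.118. The single member at an unadjusted p under 0.05 was Ctss, a lysosomal protease gene that microglia also express, as higher (0.22 ± 0.10). The vehicle median was 1.32, and 6 of 8 members had an unadjusted interaction p under 0.05 with the lower effect under THC, where 4.42% of all genes did. This list too was chosen with earlier results of these data known, so the count is a description.

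**Figure D3:**
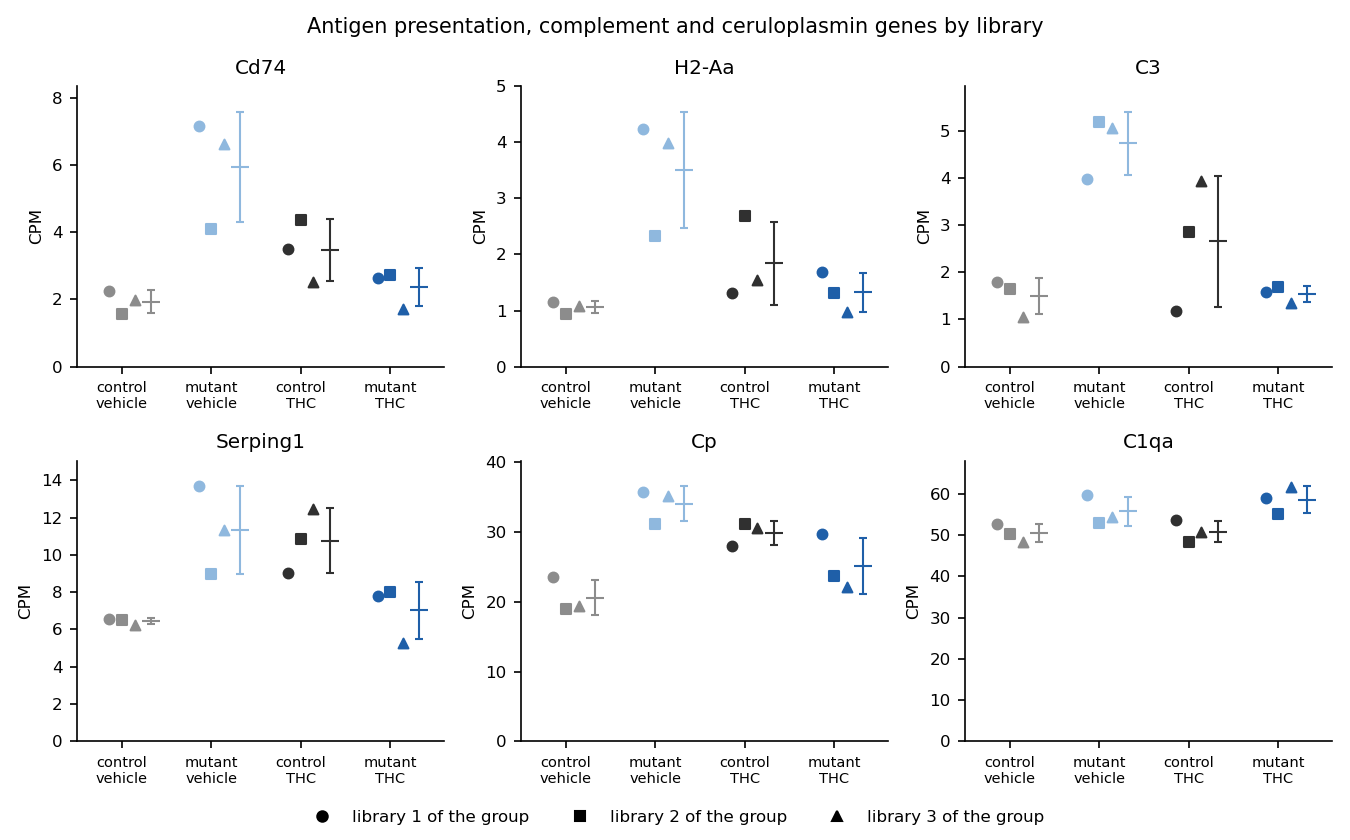
Cd74, H2-Aa, C3, Serping1, Cp and C1qa in CPM by group, each symbol 1 library and the bar the mean ± SD of 3 libraries. Mutant vehicle lies above control vehicle in all 6 panels, while mutant THC lies below control THC for Serping1, overlaps it for Cd74, H2-Aa, C3 and Cp, and lies above it for C1qa.

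The 10 genes with the smallest p-values under vehicle, chosen on those libraries, are given here by their THC values. Cp, the ceruloplasmin gene of iron export, was at 27.9, 31.2 and 30.5 CPM in control THC and at 29.7, 23.7 and 22.1 CPM in mutant THC (-0.25 ± 0.12), against 0.73 ± 0.12 under vehicle. Emilin1, an elastic fibre glycoprotein gene, was at -0.34 ± 0.17 under THC and 0.94 ± 0.17 under vehicle. Nt5dc2, Ifnar2, an interferon receptor subunit gene, Rnh1, a ribonuclease inhibitor gene, and Irgm2, an interferon-induced GTPase gene, lay at 0.01 ± 0.16, 0.00 ± 0.05, 0.02 ± 0.06 and 0.05 ± 0.12 under THC. C1rl, a complement-related protease gene, was at 0.557, 0.817 and 0.505 CPM against 1.11, 0.767 and 0.852 CPM (0.53 ± 0.25). Apart from Prm1, none of these 9 further genes was separated under THC.

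Markers of the brain's coverings and of the choroid plexus differed alongside these genes. Meningeal fibroblast and matrix genes had 18 of 20 members below 0 under THC with a median of -0.421, and a vehicle median of 0.612. Their summed level was 551, 500 and 471 CPM in control THC and 611, 331 and 330.5 CPM in mutant THC, and 380, 358 and 394 CPM against 710, 585 and 634 CPM under vehicle. Col1a2, a fibrillar collagen gene of fibroblasts, was at 44.1, 44.9 and 52.1 CPM in control THC and at 39.7, 26.6 and 19.2 CPM in mutant THC (-0.73 ± 0.28). Choroid plexus genes had a median of 5.41 under vehicle, where its sums were 79.9 to 155 CPM in control and 4119 to 11420 CPM in mutant libraries, and of 0.803 under THC. The THC value was -0.259 without mutant THC 1 and 4.18 without control THC 2. The part of these tissues in the complement and class II values was not tested. With the choroid plexus and striatal scores as covariates, the complement median under THC was 0.0015, that of class II genes -0.408 and that of matrix genes -0.251.

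Reactive astrocyte genes did not separate the genotypes under THC: 11 of 28 were above and 17 below 0, with a median of -0.088 against 0.322 under vehicle. Serping1 and Iigp1, an interferon-induced GTPase gene (-0.39 ± 0.16), were separated as lower. Homeostatic astrocyte genes had 15 of 20 members above 0 with a median of 0.095, which was -0.0039 without mutant THC 1, and the calcium-binding protein gene S100b (0.30 ± 0.11) was the single member at an unadjusted p under 0.05.

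Microglial markers lay above 0 by a small amount. All 19 tested members were above 0, with a median of 0.163, and 8 were separated, against 4.83% of all genes. Ly86, a Toll-like receptor partner gene, was at 8.83, 9.25 and 10.1 CPM in control THC against 11.1, 10.9 and 11.7 CPM in mutant THC (0.26 ± 0.09), and Tyrobp, the signalling adaptor of TREM2, at 13.8, 13 and 12.7 CPM against 16, 14.6 and 16 CPM (0.24 ± 0.11). For both genes the mutant libraries lay above all control libraries. For the receptor genes Cx3cr1 and P2ry12 and the surface protein gene Tmem119 the groups overlapped, at 0.07 ± 0.10, 0.12 ± 0.08 and 0.01 ± 0.11. The median stayed between 0.132 and 0.205 when 1 THC library was left out. Under vehicle it was 0.075.

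Myelin genes lay above 0 as a list, but their summed level overlapped between the groups. All 19 tested members were above 0 with a median of 0.505, and 16 had an unadjusted p under 0.05 as higher, where 4.71% of all genes did. The summed level was 5359, 6541 and 4451 CPM in control THC and 7983, 5776 and 9347 CPM in mutant THC, so mutant THC 2 lay within the control range. Mbp, which encodes myelin basic protein, stood at 1989, 2407 and 1510 CPM against 2861, 2035 and 3228 CPM (0.46 ± 0.19). Ugt8a alone of the 19 was separated. The median was 0.309 under vehicle, where the sums were 7024, 7125 and 5649 CPM in control and 7811, 8328 and 8965 CPM in mutant libraries. Under THC, omitting mutant THC 3 gave 0.312, omitting mutant THC 2 gave 0.666, and the tissue scores as covariates gave 0.227. Precursor markers followed at a median of 0.191, with Enpp6, a choline phosphodiesterase gene of newly formed oligodendrocytes, separated at 9.98, 11.5 and 7.54 CPM against 12.7, 12.1 and 17.6 CPM (0.55 ± 0.18).

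**Figure D4:**
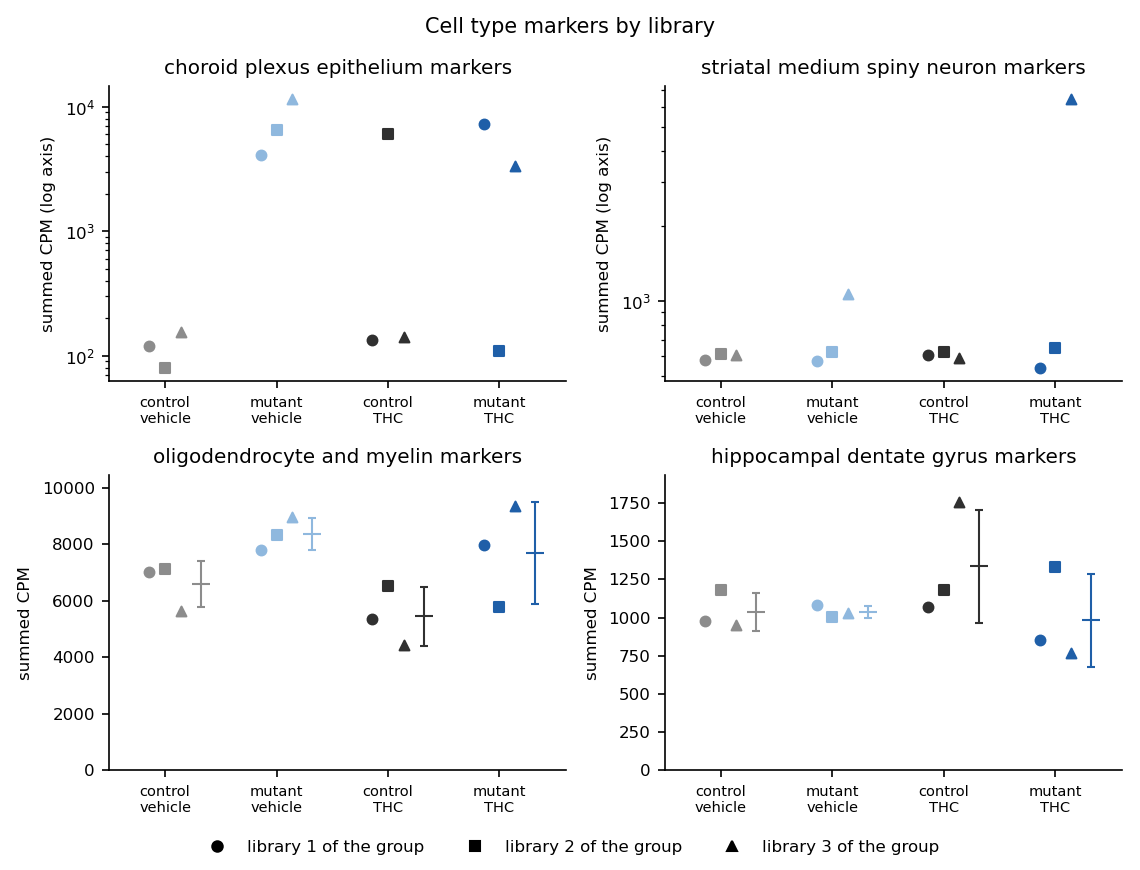
Summed CPM of 4 marker lists by group, each symbol 1 library, with the mean ± SD as bars in the lower panels and logarithmic axes in the upper panels. Choroid plexus markers are high in control THC 2 and mutant THC 1 and 3, striatal markers in mutant THC 3, while myelin and dentate gyrus sums overlap between the THC groups.

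Markers of hippocampal neurons are given by field, and a difference between fields was not tested. Dentate gyrus genes had 12 of 14 members below 0 with a median of -0.489, and 4 of them had an unadjusted p under 0.05 as lower. Dsp, the desmoplakin gene of granule cells, was at 99.1, 128 and 200 CPM in control THC and at 77.2, 113 and 48.1 CPM in mutant THC (-0.84 ± 0.32). Prox1 was at 57.0, 64.0 and 97.8 CPM against 41.7, 69.0 and 30.8 CPM (-0.63 ± 0.28). Control THC 3 was the highest library for both and mutant THC 3 the lowest, and the groups overlapped. Omitting control THC 3 gave a median of -0.241 and omitting mutant THC 2 gave -0.872, and under vehicle it was -0.012. CA3 and CA2 genes had 10 of 12 members below 0 with a median of -0.237, which omitting control THC 3 moved to -0.126 and omitting control THC 1 to -0.494. Among them was Grik4, a kainate receptor gene, at 36.5, 37.7 and 44.0 CPM against 31.0, 33.3 and 20.8 CPM (-0.47 ± 0.16). The summed CA3 and CA2 level was 671, 746 and 922 CPM in control THC and 612, 773 and 1081 CPM in mutant THC. These sums overlapped, and their mean was higher in mutant THC (822 against 780 CPM), opposite to the median. CA1 genes had 4 members above and 5 below 0 with a median of -0.011, and of -0.164 to 0.192 over single omissions.

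Striatal neuron genes had the largest list median under THC, 3.03, which rested on mutant THC 3. All 21 tested members were above 0 and 17 had an unadjusted p under 0.05, but 1 was separated, and the median was 0.065 without that library. Drd1, a dopamine receptor gene, was at 6.63, 7.28 and 9.78 CPM in control THC and at 7.69, 11.5 and 302 CPM in mutant THC. Adora2a, the adenosine receptor gene of indirect-pathway neurons, was at 1.17, 1.39 and 1.32 CPM against 1.26, 1.68 and 192 CPM. The dopamine signalling list gave a median of 1.34, and 0.083 without mutant THC 3.

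Mutant THC 3 was also the library farthest from the controls for several synaptic genes. Of 32 tested glutamate receptor and scaffold genes 14 were above and 18 below 0, with a median of -0.032. Grm3, a metabotropic receptor gene of neurons and astrocytes, was at 108, 100 and 84.7 CPM in control THC and at 137, 106 and 180 CPM in mutant THC (0.53 ± 0.16). Homer3, a postsynaptic scaffold gene, was separated at 49.5, 52.7 and 61.3 CPM against 37.7, 48.2 and 29.8 CPM (-0.50 ± 0.17), as was Grm2, an autoreceptor gene, at 39.0, 39.7 and 52.6 CPM against 31.8, 37.7 and 15.9 CPM (-0.62 ± 0.25). Of 25 inhibitory neuron genes 15 were above 0 with a median of 0.071, and Gad2, which makes GABA, was at 110, 128 and 115 CPM against 127, 144 and 247 CPM (0.55 ± 0.21).

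Immediate early genes, which follow neuronal activity, did not move one way, with 12 of 21 above 0 and a median of 0.043. Egr1 was at 26.7, 23.6 and 25.3 CPM in control THC and at 27.8, 36.0 and 56.8 CPM in mutant THC (0.67 ± 0.25). Jun was at 91.4, 93.2 and 109 CPM against 69.2, 87.8 and 52.6 CPM (-0.49 ± 0.15). Both were separated, in opposite directions, and no other of the 21 members was. Among all genes 4.83% were separated upwards and 5.7% downwards. Neurotrophin genes had 8 of 10 members below 0 with a median of -0.110 that ranged from -0.312 to -0.033 over single omissions, and Bdnf was at -0.25 ± 0.23. Glucocorticoid-induced genes had 14 of 20 members below 0 with a median of -0.029, among them Errfi1, a growth factor receptor inhibitor gene, separated at 69.5, 60.9 and 73.5 CPM against 56.5, 58.3 and 53.5 CPM (-0.28 ± 0.07). Circadian clock genes had a median of 0.0064 and Npas2 stood at 27.3 CPM in mutant THC 3 beside 7.74 to 13.2 CPM in the other 5 libraries.

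Chaperones of the endoplasmic reticulum and respiratory chain genes leaned upwards. Of 20 stress and chaperone genes 16 were above 0 with a median of 0.122. Of the 20, 5 were separated upwards and 1 downwards, where 4.83% and 5.7% of all genes were. Calr, the calreticulin gene, was at 342, 387 and 330 CPM in control THC and at 430, 394 and 412 CPM in mutant THC (0.22 ± 0.08). Hyou1, a chaperone gene induced by low oxygen, was at 137, 138 and 134 CPM against 146, 145 and 154 CPM (0.12 ± 0.05). The inducible heat shock gene Hspa1a was the member separated downwards, at 17.0, 20.2 and 18.4 CPM against 16.1, 16.8 and 11.3 CPM (-0.33 ± 0.14). Of 30 nuclear-encoded respiratory chain genes 29 were above 0, but their median was 0.065. As higher, 3 had an unadjusted p under 0.05 (all genes: 4.71%) and 2 were separated (all genes: 4.83%). Sdhc, a subunit gene of succinate dehydrogenase, was at 88.2, 89.2 and 89.9 CPM against 99.3, 92.4 and 98.8 CPM (0.12 ± 0.05).

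Vascular lists had medians near 0, -0.0066 over 19 endothelial and 0.023 over 12 pericyte and smooth muscle genes. Of the 19 endothelial genes 1 was separated upwards and 1 downwards, where 4.83% and 5.7% of all genes were. Cldn5, the tight junction gene of the blood-brain barrier, was at 24.3, 24.5 and 23.6 CPM in control THC and at 28.3, 33.7 and 27.9 CPM in mutant THC (0.31 ± 0.10). Under vehicle it was at 25.9, 27.0 and 31.6 CPM against 23.8, 23.9 and 20.4 CPM (-0.31 ± 0.10), separated in the other direction, with an interaction of 0.62 ± 0.14 (unadjusted p = 0.00098, adjusted p = 0.544 by edgeR). Vwf, the von Willebrand factor gene, was at 28.2, 30.8 and 33.6 CPM against 27.7, 17.6 and 16.4 CPM under THC (-0.59 ± 0.19) and at 0.31 ± 0.19 under vehicle.

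**Figure D5:**
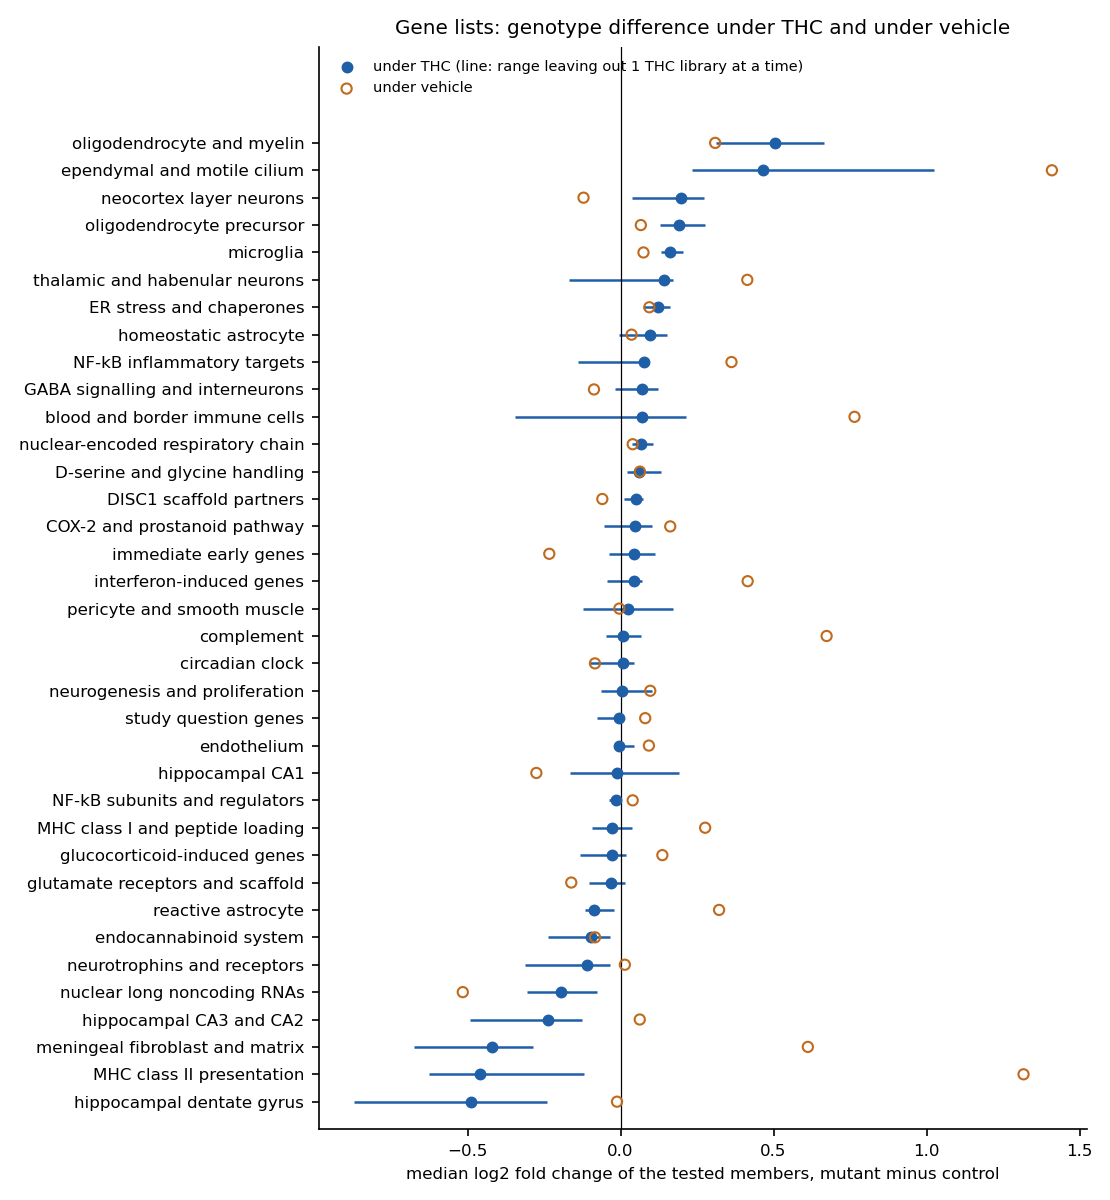
Median log2 fold change of mutant minus control over the tested members of each list, filled under THC with a line for the range when 1 THC library at a time was left out, and open under vehicle; the striatal, dopamine and choroid plexus lists are left out for scale. Matrix and class II genes lie below 0 under THC and above 0 under vehicle, while myelin and microglial lists lie above 0 in both.

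The remaining lists had at most 1 member each with an unadjusted p under 0.05. Their medians under THC were -0.028 for class I presentation, -0.196 for nuclear long noncoding RNAs, 0.465 for ependymal genes, 0.196 for neocortex layers, 0.141 for thalamic and habenular neurons, 0.0054 for neurogenesis and proliferation, and 0.070 for blood and border immune cells. The neocortex median was 0.036 without control THC 3, the noncoding RNA median -0.076 without control THC 2, the ependymal median 1.02 without control THC 2, the blood and immune median -0.345 without mutant THC 1, and the thalamic median -0.169 without mutant THC 1. Of these, the ependymal list had 17 of 18 members above 0, and in none of them were the groups separated. Over single omissions the median also took both signs for the prostanoid, NF-kB target, complement, class I, interferon, glucocorticoid, immediate early, glutamate, GABA, clock, neurogenesis, endothelial and pericyte lists. It ranged from 0.010 to 0.073 for DISC1 partners, 0.074 to 0.161 for chaperones, 0.037 to 0.106 for respiratory chain genes, -0.115 to -0.022 for reactive astrocyte genes and -0.675 to -0.287 for matrix genes.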

How the data were processed

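Paired-end reads were made from hippocampal total RNA after removal of ribosomal RNA, per the labels' protocols. The deposited table gives the authors' expected counts for each gene, not scaled for depth or length; the submitters' processing notes name CASAVA 1.8.4, Bowtie2 2.2.2, RSEM 1.2.21, edgeR 3.10.2 and the build mm10. Between 35.9% and 38.6% of the nonzero values per library were not whole, since RSEM shares ambiguous reads, so near-identical gene copies are uncertain, as are antisense overlaps because strand use is not stated. Of 23382 rows, 23011 took a symbol from RefSeq (GRCm38.p6) and 129 from GENCODE; 235 without a symbol held 0.73% of the counts.

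Counts were rounded, filtered with filterByExpr and scaled by TMM (factors 0.989 to 1.012). The main test was edgeR 4.0.16 (R 4.3.3; glmQLFit, robust, glmQLFTest) with 12 libraries in 1 model of 4 group means, 8 residual degrees of freedom, Benjamini-Hochberg over all genes and a threshold of 0.05; SE values come from the F statistic. Totals of 33165903 to 41389957 per library set the precision of low genes. Alternatives were DESeq2 1.42.0, voom of limma 3.58.1, other scalings, filters, rounding, tissue scores as covariates, fewer libraries and leave-one-out. On simulated data (15698 genes, 200 changed) the genotype comparison under THC recovered 52.9% of genes changed 1.5-fold, 80.9% at 2-fold and 89.1% at 4-fold, with 7 false calls. Each gene was drawn independently around 1 mean over all libraries. The simulation thus lacks differences shared by many genes, such as those of choroid plexus and striatal markers. How far its rates hold for the real libraries was not tested, and Nptxr, at a log2 fold change of -0.98, did not pass there by edgeR.

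Members and lists were chosen with earlier results of these data known. Named genes are the called ones, filled to 12 per side at a mean of at least 1 CPM by smallest p, the 10 smallest p-values under vehicle, and 8 study question genes. List examples are members with the smallest p on a side, and some were added after their values were seen. Libraries were checked for repeats in 66 pairs by a chi-square per gene, and the lowest value was 11.2, where sampling alone gives about 1.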

Additional observations from a re-analysis of the deposited data

How the results depend on the processing

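For genotype under THC, DESeq2 called 7 genes against 1, and 0 were called by limma-voom, with the THC libraries alone, and without control THC 2 and mutant THC 3 together; leaving out single libraries gave 0 to 1. Genes at an unadjusted p under 0.05 numbered 1419, but 533 with the tissue scores as covariates, 563 without mutant THC 3, 679 with the THC libraries alone, 755 without control THC 2 and mutant THC 3, 705 without control THC 3 and 3188 without mutant THC 2. For genotype under vehicle, the counts were 788 by DESeq2, 523 with the vehicle libraries alone, 0 by limma-voom and with covariates, and 0 to 2 over single omissions, against 1. For the interaction they were 34 by DESeq2 and 0 to 10 over single omissions (10 without mutant THC 1), against 0. Other filters, other scalings and unrounded counts gave 1 call under THC, 1 under vehicle and 0 for the interaction.

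Prm1 was above 0 in each alternative but did not pass by limma-voom (6.55), with the THC libraries alone (7.34) or without control THC 2 and mutant THC 3 (6.87); the cause was not tested. Genes near 0 changed sign. Nt5dc2 was at -0.0047 by limma-voom and -0.031 with covariates, and Ifnar2 at -0.0015 and -0.011, and at -0.0045 with no filter and -0.0010 with the stricter one. Gfap was at -0.013 by limma-voom. Rela was at -0.0023 with no filter, and with covariates Rela was at -0.028, Rnh1 at -0.0057 and Disc1 at 0.115. Without control THC 2 and mutant THC 3, H2-Aa was at 0.066, Disc1 at 0.090 and Srr at -0.042. Over single omissions Nt5dc2 ranged from -0.068 to 0.087, Ifnar2 from -0.026 to 0.026, Rnh1 from -0.024 to 0.055, Irgm2 from -0.034 to 0.148 and Rela from -0.034 to 0.039. Nfkbia ranged from -0.094 to 0.098, Srr from -0.027 to 0.078, Gfap from -0.122 to 0.203 and Disc1 from -0.428 to 0.099.

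No paired analysis was possible because the labels' numbers do not recur between groups. Differences under 1.5-fold, which most named genes show, were not simulated, so the depth and the 3 libraries a side give no recovery rate for them.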
